A study of Mus musculus with 15 samples.

Results

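Growth factor signalling through RAS and ERK switches on genes that hold the same signal back, and the 10 genes followed here are drawn from that response: Spred1, Spred2, Spry2, Spry4, Dusp4, Dusp6, Etv1, Etv4, Etv5 and Fosl1. They were chosen by name as feedback regulators and ETS-family targets of the mitogen-activated protein kinase (MAPK) pathway. The choice was made with earlier results of these data known, so the counts and medians below are descriptions of these genes. Each gene was read from the probe set that the platform annotation pairs with its symbol. All 10 had exactly 1 probe set, of 21212 probe sets on the array and 18786 with a single gene symbol. No measured value entered the choice of the probe sets.

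The arrays measured total RNA from E14TG2a.4 mouse embryonic stem cells, a feeder-independent line, at passage 17, grown on gelatin in 15% foetal bovine serum with leukaemia inhibitory factor (LIF). All 5 groups had received a lentivirus with a short hairpin RNA (shRNA), a trigger for degradation of messenger RNA of matching sequence. They were then selected with puromycin at 2 µg per ml, given 36 hours after transduction for 72 hours. The Tet1 set held 9 arrays, 3 each of Tet1 shRNA 4, Tet1 shRNA 5 and a scrambled hairpin, and the Sin3A set held 6 arrays, 3 each of Sin3A shRNA and a scrambled hairpin of its own. Tet1 encodes an enzyme that oxidises 5-methylcytosine in DNA, and the protein made from Sin3a holds together a corepressor complex with histone deacetylases. The cells are a selected population that kept part of the targeted transcript, and the labels do not state whether the 3 arrays of each group are independent cultures. The p-values therefore speak only of the spread among these arrays, and that spread may be technical. Precision is limited throughout by the small number of arrays.

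In this pathway fibroblast growth factors and other ligands act through receptor tyrosine kinases, RAS and RAF to activate the kinases MEK and ERK, and ERK phosphorylates ETS and AP-1 transcription factors. The Sprouty and SPRED proteins damp the signal at the level of RAS and RAF, and the dual-specificity phosphatases remove the activating phosphates from ERK itself. In mouse embryonic stem cells ERK activity, much of it driven by FGF4, promotes exit from the naive pluripotent state, and transcripts such as Spry4, Dusp6, Etv4 and Etv5 are commonly used as a readout of it.

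The 250 bases before the start of 4 of these genes are printed here because the genes differ in their response: Spred1, Dusp6 and Etv1 rose with Sin3A shRNA, and Spred2, the paralogue of Spred1, passed no test. The windows are RefSeq sequences of GRCm38.p6, all on the + strand, at chr2:117120821-117121070 for Spred1, chr10:99262981-99263230 for Dusp6, chr12:38779832-38780081 for the upstream start of Etv1 and chr11:19924192-19924441 for Spred2, written 5′ to 3′. Capitals mark GGAA, the core that ETS factors bind, on either strand (TTCC marks the opposite one).
Spred1: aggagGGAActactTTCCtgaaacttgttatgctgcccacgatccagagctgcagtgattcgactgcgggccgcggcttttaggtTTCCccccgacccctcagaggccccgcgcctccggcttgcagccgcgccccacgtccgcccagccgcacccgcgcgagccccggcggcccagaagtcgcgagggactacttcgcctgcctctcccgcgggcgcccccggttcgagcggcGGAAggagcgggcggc
Dusp6: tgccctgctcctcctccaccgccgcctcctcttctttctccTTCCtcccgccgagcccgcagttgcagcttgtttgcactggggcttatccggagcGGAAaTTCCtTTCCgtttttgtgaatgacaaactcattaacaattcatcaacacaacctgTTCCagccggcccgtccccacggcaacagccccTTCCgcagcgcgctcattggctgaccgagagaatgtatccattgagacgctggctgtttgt
Etv1: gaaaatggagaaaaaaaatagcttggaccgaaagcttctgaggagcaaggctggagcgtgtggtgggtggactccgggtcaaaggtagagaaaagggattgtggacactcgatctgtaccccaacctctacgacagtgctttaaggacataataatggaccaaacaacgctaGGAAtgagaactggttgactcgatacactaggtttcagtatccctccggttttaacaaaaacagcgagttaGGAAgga
Spred2: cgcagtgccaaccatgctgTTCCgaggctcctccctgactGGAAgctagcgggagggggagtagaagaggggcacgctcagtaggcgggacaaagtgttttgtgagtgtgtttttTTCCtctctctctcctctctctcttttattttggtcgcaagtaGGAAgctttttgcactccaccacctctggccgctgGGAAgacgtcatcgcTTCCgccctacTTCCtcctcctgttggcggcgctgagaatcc

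The core was present 4 times in the Spred1 window, 6 times in that of Dusp6, 2 times in that of Etv1 and 7 times in that of Spred2. Of the other matched genes, Spry2 had 3 and Etv5 had 0 and 4 before its 2 starts, and the second start of Etv1 had 1. At least 1 GGAA core stood in 93.4% of the 32851 promoter windows of the same length in the RefSeq table, with a median of 3. The windows also differed in CpG content, with 31 CG dinucleotides for Spred1, 16 for Dusp6, 9 for Etv1 and 12 for Spred2, against a median of 6 over all windows. The second start of Etv1 had 1 CG, Spry2 had 23, and Etv5 had 27 and 18 before its 2 starts. Etv5 and Spry2 had windows in the table too, and no window of the 6 matched genes (8 windows in all) held TGAATGNA, an octamer of the kind bound by the repressor CIC, or TGANTCA, the AP-1 site, on either strand. These motifs stood in 3.2% and 6.7% of all windows. TGAATGNA can share its last bases with a GGAA core, TGANTCA cannot overlap one, and a match or its absence describes only the letters of the window. Spry4, Dusp4, Etv4 and Fosl1 had no entry.

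The hairpins lowered their targets. Tet1 stood at 10.43, 10.44 and 10.39 on the log2 scale with Tet1 shRNA 4 and at 9.94, 10.14 and 10.20 with Tet1 shRNA 5, against 12.21, 12.17 and 12.21 with the scrambled hairpin, which is 3.43-fold and 4.30-fold lower (adjusted p = 2.08e-06 and 1.51e-06). Sin3a was 2.93-fold lower with Sin3A shRNA (adjusted p = 1.28e-05). Each target also moved under the other knockdown, Tet1 by +0.31 with Sin3A shRNA (adjusted p = 0.00679), and Sin3a by -0.27 and -0.24 with Tet1 shRNA 4 and 5 (adjusted p = 0.0147 and 0.0219). Replicate arrays of a group correlated at 0.9943 to 0.9981 over probe sets. The deviations of Tet1 shRNA 4 replicate 2 and scrambled replicate 2 of the Tet1 set from their group means correlated at 0.517, and calls that change without both arrays are given with that value. The mean over all probe sets of an array was 7.08 to 7.11 (Tet1 set) or 8.09 (Sin3A set), so levels are compared only within a set. All 10 stem cell markers listed lay above the median probe set in every group. Of the markers of other cell types, at most 7 of 10 (trophectoderm) and 6 of 8 (neuroectoderm) did so, and all values are on a log2 scale with no 0 level.

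With Tet1 knockdown, Spred1, Spry4 and Etv4 rose with both hairpins and Dusp4 fell with both. Every change is a difference of log2 means from limma, knockdown minus scrambled, with the adjusted p taken over all 21212 probe sets and a threshold of 0.05. Of the 10 genes 3 rose and 1 fell with Tet1 shRNA 4, where 11.6% of all probe sets passed (6.88% higher and 4.71% lower). With Tet1 shRNA 5, 4 rose and 1 fell, where 13.8% of all probe sets passed (8.37% higher and 5.46% lower). The 4 genes called with both hairpins compare with 5.40% of all probe sets higher and 3.40% lower with both, and both comparisons share the same 3 scrambled arrays. The median change of the 10 genes was 0.05 with shRNA 4 and 0.13 with shRNA 5, beside a median of 0 over all probe sets in each. Of the 10 genes 9 lay among the 10606 probe sets above the median level. In fits of only those probe sets, 2715 passed with shRNA 4 and 3220 with shRNA 5, with 4 and 5 of the 9 genes. The shares over all probe sets are therefore a low comparison for these genes. These are bulk measurements, in which fewer cells of a type and less RNA per cell cannot be told apart.

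With Sin3A knockdown 5 of the 10 genes rose and none fell: Spred1, Dusp6, Etv1, Etv4 and Fosl1. In that comparison 24.8% of all probe sets passed, 12.2% higher and 12.6% lower (5261 probe sets, and 3359 without Sin3A shRNA replicate 2). The 5 genes that did not pass had unadjusted p-values of 0.0201 (Etv5), 0.0426 (Spry4), 0.0667 (Dusp4), 0.23 (Spred2) and 0.636 (Spry2). The median change of the 10 genes was 0.31, beside 0.01 over all probe sets. In a fit of only the 10606 probe sets above the median level, 5009 passed, as did 6 of the 10 genes (Etv5 in addition). The share over all probe sets is therefore a low comparison for these 10 genes. The plot of array levels shows each value.

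**Figure D1:**
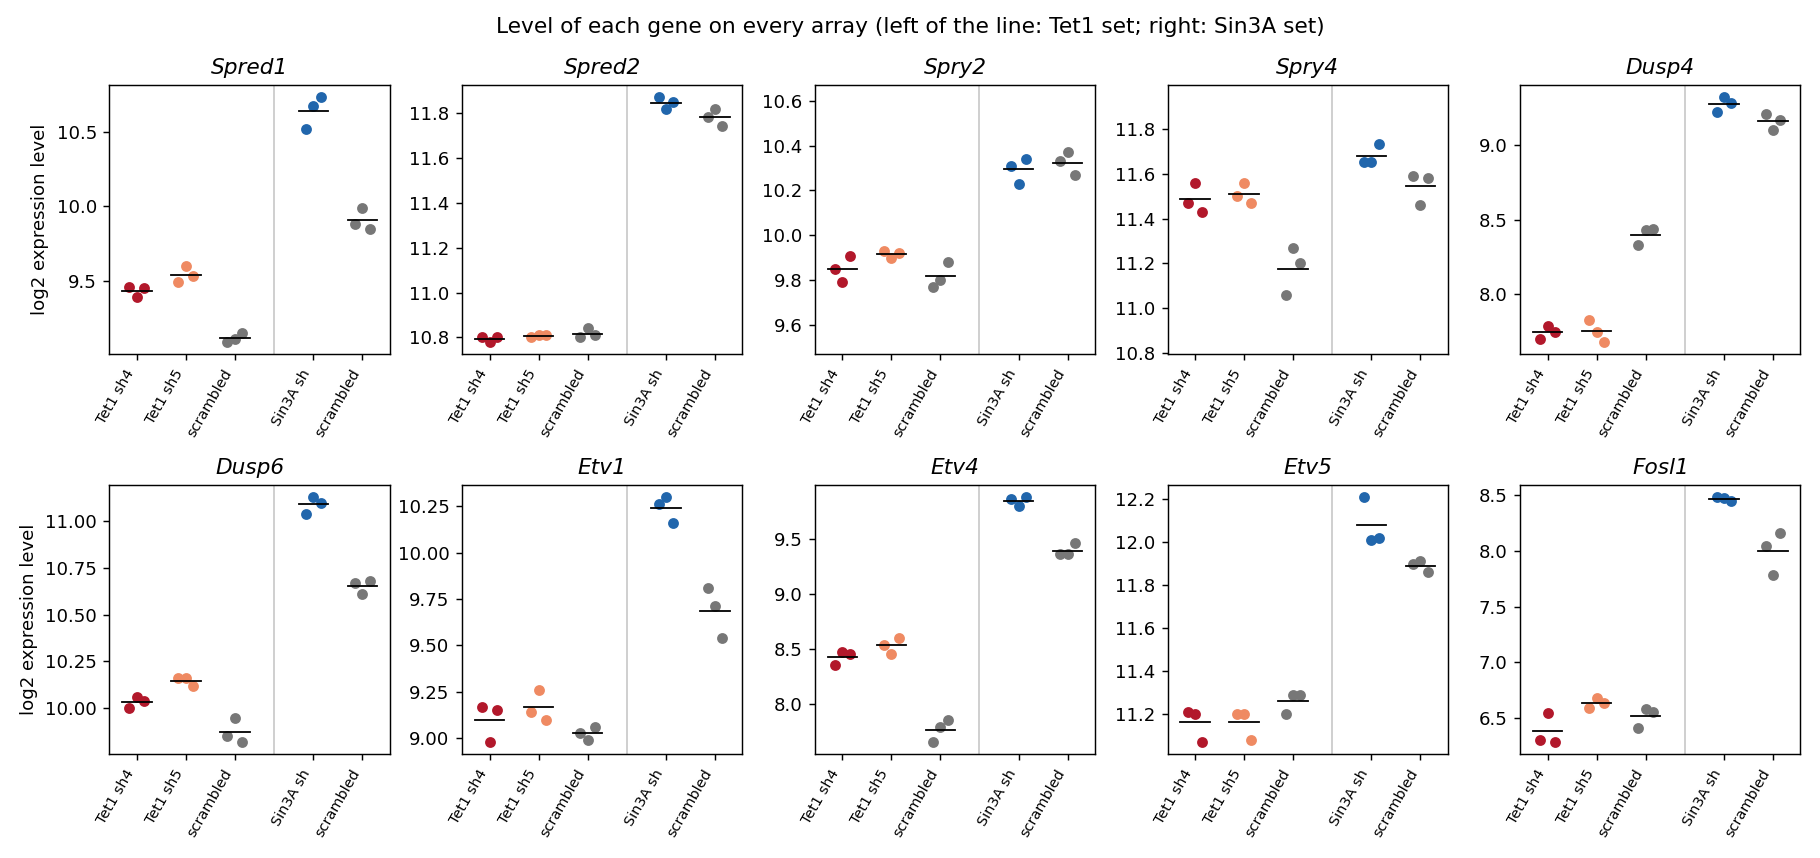
Log2 expression level of the 10 genes on every array, with Tet1 shRNA 4, Tet1 shRNA 5 and scrambled arrays left of the vertical line and Sin3A shRNA and scrambled arrays of the Sin3A set right of it. Points are single arrays, horizontal bars are group means (n = 3 each), the vertical axes differ between genes, and levels left and right of the line are not comparable. Dusp4 is lower than scrambled with both Tet1 hairpins, and Spred1 and Etv4 are higher than scrambled with all 3 knockdowns.

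Among the Sprouty and SPRED genes of the 10, Spred1 was the gene called higher with every hairpin. Its protein, the one lost in Legius syndrome in humans, brings the RAS GTPase-activating protein neurofibromin to the membrane. Spred1 stood at 9.46, 9.39 and 9.45 with Tet1 shRNA 4 and at 9.49, 9.60 and 9.53 with Tet1 shRNA 5, against 9.09, 9.11 and 9.15 with scrambled. All 6 knockdown arrays lay above all 3 scrambled arrays. The changes were 0.32 ± 0.06 (SE, adjusted p = 0.00508) and 0.43 ± 0.06 (SE, adjusted p = 0.000912). In the Sin3A set Spred1 stood at 10.52, 10.67 and 10.73 with Sin3A shRNA, against 9.88, 9.99 and 9.85 with scrambled, again with no overlap. That change, 0.73 ± 0.07 (SE), was a 1.66-fold rise (adjusted p = 0.000393).

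Spred2, which encodes a second member of that inhibitor family, passed in no comparison. Its levels were 10.80, 10.78 and 10.80 with Tet1 shRNA 4 and 10.80, 10.81 and 10.81 with Tet1 shRNA 5, against 10.80, 10.84 and 10.81 with scrambled, and the groups overlapped. The 95% interval of the change was -0.13 to 0.09 for shRNA 4 and -0.12 to 0.10 for shRNA 5. With Sin3A shRNA it stood at 11.87, 11.82 and 11.85, against 11.78, 11.82 and 11.74 with scrambled (95% interval of the change -0.05 to 0.18).

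Of the Sprouty genes, Spry4 passed with both Tet1 hairpins and Spry2 in no comparison, and the genes were not tested against each other. Spry4, whose protein blocks growth factor signalling upstream of RAF, stood at 11.47, 11.56 and 11.43 with Tet1 shRNA 4 and at 11.50, 11.56 and 11.47 with Tet1 shRNA 5, against 11.06, 11.27 and 11.20 with scrambled. No scrambled array reached the lowest knockdown array. The changes were 0.31 ± 0.07 and 0.33 ± 0.07 (SE, adjusted p = 0.0193 and 0.0115). These calls lie near the threshold. With shRNA 4 the adjusted p was 0.0602 or 0.0511 on leaving out scrambled replicate 1 or 3, 0.0587 or 0.0629 on leaving out shRNA 4 replicate 1 or 2, and above the threshold too in a fit of those 2 groups alone (0.0579). The shRNA 5 call was lost without shRNA 5 replicate 2 (adjusted p = 0.052).

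Spry4 in the Sin3A set stood at 11.65, 11.65 and 11.73 with Sin3A shRNA, against 11.59, 11.46 and 11.58 with scrambled. The groups did not overlap, but the difference of 0.14 did not pass (adjusted p = 0.124). Spry2, a Sprouty gene with the same kind of action, stood at 9.85, 9.79 and 9.91 with Tet1 shRNA 4 and at 9.93, 9.90 and 9.92 with Tet1 shRNA 5, against 9.77, 9.80 and 9.88 with scrambled. The shRNA 5 arrays all lay above scrambled, yet neither change passed (95% intervals -0.10 to 0.16 and -0.03 to 0.23). In the Sin3A set its levels were 10.31, 10.23 and 10.34 with Sin3A shRNA, against 10.33, 10.37 and 10.27 with scrambled, and overlapped (95% interval -0.15 to 0.10).

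Of the phosphatase genes, Dusp4 fell with both Tet1 hairpins and Dusp6 rose with Tet1 shRNA 5 and Sin3A shRNA. Dusp4 encodes a nuclear phosphatase of ERK and other MAP kinases, and Dusp6 a cytoplasmic one that prefers ERK. Dusp4 stood at 7.70, 7.79 and 7.75 with Tet1 shRNA 4 and at 7.83, 7.75 and 7.68 with Tet1 shRNA 5, against 8.33, 8.43 and 8.44 with scrambled. The highest knockdown array was well below the lowest scrambled array. Both hairpins gave a 1.57-fold reduction, -0.65 ± 0.06 with each (SE, adjusted p = 0.000169 and 0.000184). In the Sin3A set Dusp4 stood at 9.22, 9.32 and 9.28 with Sin3A shRNA, against 9.21, 9.10 and 9.17 with scrambled. Those groups did not overlap, but the difference of 0.11 did not pass (adjusted p = 0.171).

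Dusp6 stood at 10, 10.06 and 10.04 with Tet1 shRNA 4 and at 10.16, 10.16 and 10.12 with Tet1 shRNA 5, against 9.85, 9.95 and 9.82 with scrambled. Neither hairpin's arrays overlapped scrambled. It rose with shRNA 5 by 0.27 ± 0.06 (SE, adjusted p = 0.0114), and the difference of 0.16 with shRNA 4 did not pass (adjusted p = 0.122) except without scrambled replicate 2 (adjusted p = 0.0451). The direct comparison of the hairpins did not separate them (shRNA 5 minus shRNA 4 0.11, 95% interval -0.01 to 0.24). With Sin3A shRNA the levels were 11.04, 11.13 and 11.10, against 10.67, 10.61 and 10.68 with scrambled, a rise of 0.44 ± 0.05 (SE, adjusted p = 0.000862).

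Etv1, Etv4 and Etv5 encode the PEA3 subfamily of ETS activators, whose transcription follows ERK activity. Etv4 passed with all 3 hairpins, Etv1 with Sin3A shRNA and Etv5 with none. Etv4 stood at 8.36, 8.47 and 8.46 with Tet1 shRNA 4 and at 8.54, 8.46 and 8.60 with Tet1 shRNA 5, against 7.66, 7.79 and 7.86 with scrambled. It stood at 9.86, 9.80 and 9.88 with Sin3A shRNA, against 9.36, 9.36 and 9.46 with scrambled. Every knockdown array lay above every scrambled array of its set. Etv4 rose 1.58-fold with Tet1 shRNA 4 (adjusted p = 0.000336), 1.70-fold with Tet1 shRNA 5 (adjusted p = 0.00015) and 1.37-fold with Sin3A shRNA (0.45 ± 0.05 on the log2 scale, SE, adjusted p = 0.000885).

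Etv1 stood at 9.17, 8.98 and 9.15 with Tet1 shRNA 4 and at 9.14, 9.26 and 9.10 with Tet1 shRNA 5, against 9.03, 8.99 and 9.06 with scrambled. The shRNA 4 arrays overlapped scrambled, the shRNA 5 arrays lay above it, and neither change passed (95% intervals -0.09 to 0.23 and -0.02 to 0.30). With Sin3A shRNA it stood at 10.26, 10.30 and 10.16, against 9.81, 9.71 and 9.54 with scrambled, a 1.47-fold rise (0.55 ± 0.08, SE, adjusted p = 0.0019).

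Etv5 stood at 11.21, 11.20 and 11.07 with Tet1 shRNA 4 and at 11.2, 11.20 and 11.08 with Tet1 shRNA 5, against 11.2, 11.29 and 11.29 with scrambled. As rounded, scrambled replicate 1 stood level with the upper knockdown arrays, and the other scrambled arrays lay above them all. Before rounding, the shRNA 5 arrays did not overlap scrambled and the shRNA 4 arrays did. Neither difference of -0.10 passed (adjusted p = 0.407 and 0.421). With Sin3A shRNA it stood at 12.21, 12.01 and 12.02, against 11.90, 11.91 and 11.86 with scrambled, without overlap. That difference of 0.19 (95% interval 0.04 to 0.34) did not pass over all probe sets (adjusted p = 0.0717), but passed over the brighter ones alone (0.0321) and with an intensity trend and robust variance moderation (0.0198).

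Fosl1 encodes Fra-1, an AP-1 subunit that is both made and stabilised under ERK activity. It was the one gene of the 10 below the median probe set in the scrambled groups of both sets. Fosl1 stood at 6.31, 6.55 and 6.29 with Tet1 shRNA 4 and at 6.59, 6.68 and 6.64 with Tet1 shRNA 5, against 6.41, 6.58 and 6.56 with scrambled. The shRNA 4 arrays overlapped scrambled and the shRNA 5 arrays lay just above it. The differences had opposite signs, -0.13 and 0.12, and neither passed (adjusted p = 0.403 and 0.439). In the Sin3A set the levels were 8.48, 8.47 and 8.44 with Sin3A shRNA, against 8.04, 7.78 and 8.16 with scrambled. The Sin3A shRNA arrays lay close together above a wider scrambled group, a rise of 0.47 ± 0.09 (SE, adjusted p = 0.00853).

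**Figure D2:**
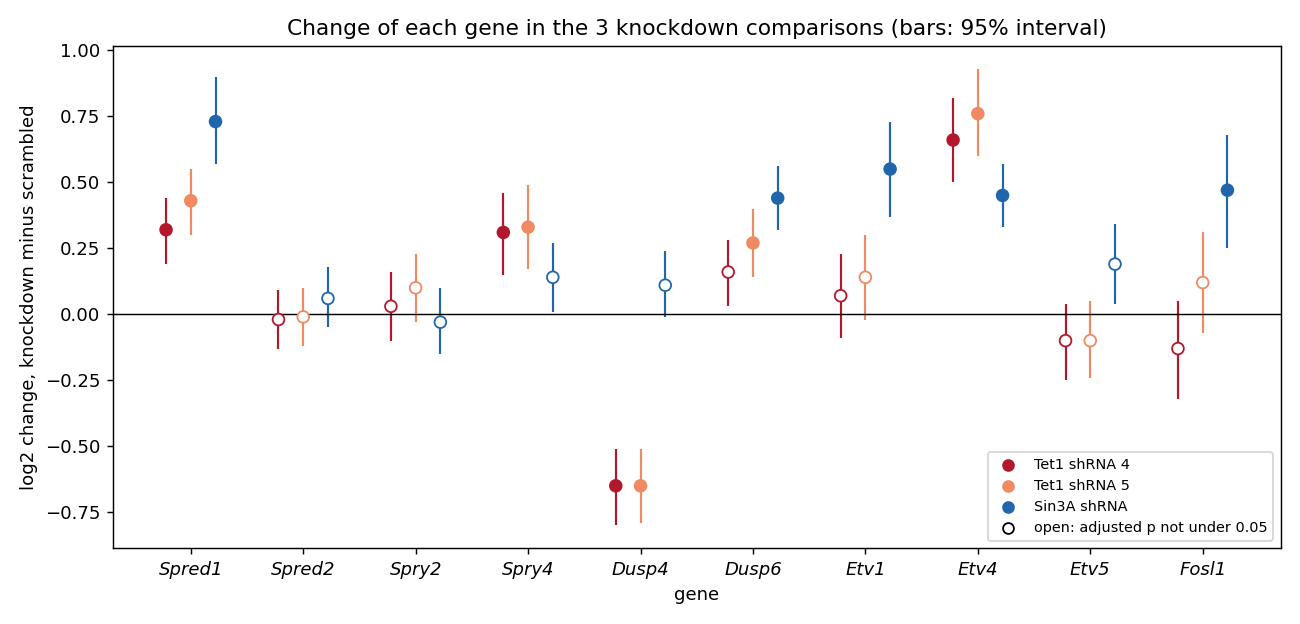
Change of each gene on the log2 scale, knockdown minus scrambled arrays of the same set, for Tet1 shRNA 4, Tet1 shRNA 5 and Sin3A shRNA (3 arrays a group). Points are limma estimates, bars are 95% intervals, and filled points passed an adjusted p of 0.05. Dusp4 lies near -0.65 with both Tet1 hairpins and at 0.11 with Sin3A shRNA.

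The Tet1 hairpins were also compared with each other. None of the 10 genes passed, while 0.141% of all probe sets did (30 probe sets, 0.0849% lower with shRNA 5 and 0.0566% higher). That count fell to 9 or fewer without any 1 array other than scrambled replicate 2. Fosl1 had the widest gap (0.25 higher with shRNA 5, unadjusted p = 0.0136, adjusted p = 0.389). By unadjusted p no other of the 10 was under 0.05. A gap that misses the threshold does not show that the hairpins acted alike.

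Whether Tet1 and Sin3A knockdown differed was tested as the mean of both Tet1 effects minus the Sin3A effect, each effect taken within its own set. Dusp4 differed by -0.77 ± 0.08 (SE, adjusted p = 8.19e-06), Etv1 by -0.45 ± 0.10 (SE, adjusted p = 0.00536), Fosl1 by -0.48 ± 0.12 (SE, adjusted p = 0.0121) and Spred1 by -0.36 ± 0.08 (SE, adjusted p = 0.00662). Those 4 kept the call when any 1 of the 15 arrays was left out. In all 1 gene differed upwards and 6 downwards, in a test that 20.0% of all probe sets passed (11.3% higher and 8.71% lower). Without scrambled replicate 1 of the Sin3A set 4 of the 10 genes passed. In a fit of only the 10606 probe sets above the median level, 4095 passed, as did 6 of the 9 genes tested there. The sets were deposited with different array means and each knockdown target has its own set, so target and set cannot be told apart.

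The remaining 3 calls of that test were less stable. Etv5 differed by -0.29 (adjusted p = 0.0281), and the call was lost without scrambled replicate 3 of the Tet1 set (0.0636), scrambled replicate 1 (0.055) or 3 (0.0675) of the Sin3A set or Sin3A shRNA replicate 1 (0.0753). Dusp6 differed by -0.23 (adjusted p = 0.0312) and lost the call on leaving out 7 of the 15 arrays in turn, namely scrambled replicate 2 of the Tet1 set, Tet1 shRNA 4 replicate 1, Tet1 shRNA 5 replicate 3, scrambled replicates 1 and 2 of the Sin3A set and Sin3A shRNA replicates 2 and 3 (adjusted p 0.0501 to 0.0896). Etv4, the gene that was higher in the Tet1 effect, differed by 0.26 (adjusted p = 0.0406) and lost the call on leaving out 11 of the 15 arrays in turn (adjusted p 0.0553 to 0.106). It kept the call only on leaving out scrambled replicate 2 or 3 of the Tet1 set, Tet1 shRNA 4 replicate 1 or Tet1 shRNA 5 replicate 2. Without both arrays whose deviations correlated, Etv4 was at an adjusted p of 0.0603 and Dusp6 at 0.0508. Spry4, Spry2 and Spred2 did not pass (adjusted p = 0.157, 0.436 and 0.426).

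**Figure D3:**
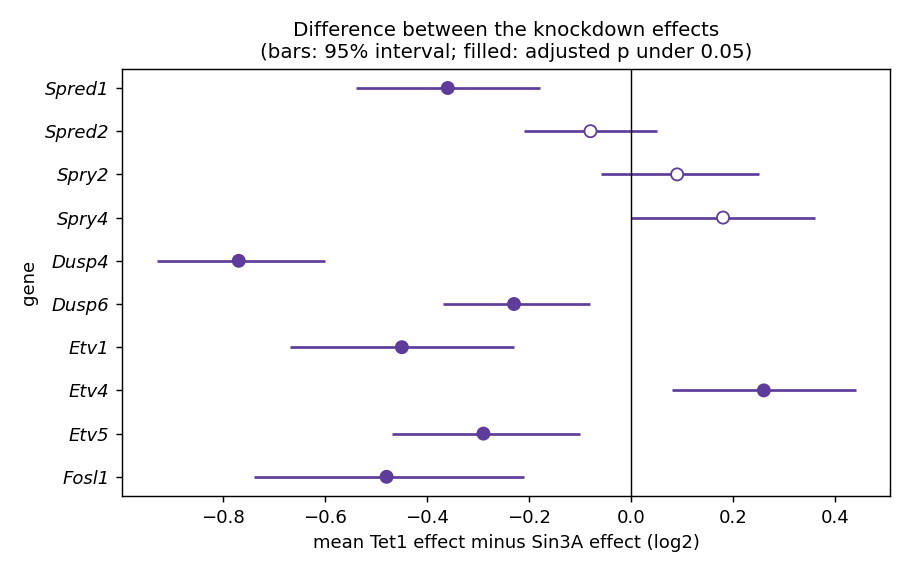
Difference between the knockdown effects on the log2 scale, mean of both Tet1 effects minus the Sin3A effect, for the 10 genes. Points are limma estimates over 15 arrays, bars are 95% intervals and filled points passed an adjusted p of 0.05. Dusp4 lies lowest at -0.77, and Etv4 at 0.26 is the one filled point right of 0.

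The other genes of the pathway moved in both directions. Beside the list counts that follow, the shares over all probe sets were 11.6% called with Tet1 shRNA 4, 13.8% with Tet1 shRNA 5 and 24.8% with Sin3A shRNA, and 5.40% higher and 3.40% lower with both Tet1 hairpins. Of 23 other feedback regulators 4 rose and 3 fell with Tet1 shRNA 4, 4 rose and 1 fell with Tet1 shRNA 5, and 6 rose and 2 fell with Sin3A shRNA, with medians of 0.09, 0.04 and 0.14. Dusp3, a phosphatase of ERK and JNK, fell with both Tet1 hairpins (-0.37 ± 0.07 and -0.31 ± 0.07, SE, adjusted p = 0.00508 and 0.0121) and rose with Sin3A shRNA (0.33 ± 0.05, SE, adjusted p = 0.0027). Errfi1, which encodes an inhibitor of the epidermal growth factor receptor, fell with Sin3A shRNA (-0.66 ± 0.07, SE, adjusted p = 0.000718) and had -0.21 and -0.08 with Tet1 shRNA 4 and 5. Nf1, the gene of neurofibromin, the partner of SPRED proteins, rose with Tet1 shRNA 4 (0.50, adjusted p = 0.00527) and Sin3A shRNA (0.42, adjusted p = 0.00484) and had 0.30 with shRNA 5 (adjusted p = 0.0551). Sh2b3, the gene of the adaptor LNK, rose with Sin3A shRNA (0.45, adjusted p = 0.00111).

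Rasa2, a RAS GTPase-activating protein gene, rose with both Tet1 hairpins (0.57 and 0.66, adjusted p = 0.0243 and 0.00965), but its shRNA 4 call was lost without shRNA 4 replicate 1 (adjusted p = 0.0777) or 3 (0.0911). Its relative Rasa3 rose with Sin3A shRNA (0.52, adjusted p = 0.000787) and with Tet1 shRNA 4 (0.35, adjusted p = 0.0158), the last lost without shRNA 4 replicate 1 (0.0672) or 3 (0.0511). Dusp16, a phosphatase of JNK and p38, had 0.41 and 0.34 with Tet1 shRNA 4 and 5 (adjusted p = 0.017 and 0.0355). The first call was lost without scrambled replicate 1 or shRNA 4 replicate 1 or 3 (0.0572 to 0.0692), and the second without scrambled replicate 1 or 2, shRNA 4 replicate 3 or any shRNA 5 array (0.0541 to 0.122).

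In the RAS-ERK core cascade 3 of 21 genes rose and 3 fell with both Tet1 hairpins, and 6 rose and 4 fell with Sin3A shRNA, beside 5.40% higher and 3.40% lower of all probe sets with both Tet1 hairpins and 12.2% higher and 12.6% lower with Sin3A shRNA. Medians were 0.04, 0.01 and 0.02 with Tet1 shRNA 4, Tet1 shRNA 5 and Sin3A shRNA. Mras, a RAS relative whose protein helps to activate RAF, rose with all 3 hairpins (0.65, 0.57 and 0.29, adjusted p = 6.41e-05, 0.000147 and 0.0035). Braf, the gene of a RAF kinase, fell with both Tet1 hairpins (-0.54 and -0.50, adjusted p = 0.00138 and 0.00197), and its 0.19 with Sin3A shRNA (adjusted p = 0.0423) was lost without scrambled replicate 1 or 3 or any Sin3A shRNA array (0.0723 to 0.122). Nras, a RAS gene, was lower with all 3 hairpins (-0.44, -0.37 and -0.25, adjusted p = 0.0104, 0.0203 and 0.00631), the shRNA 5 call being lost without scrambled replicate 1 or 3 or shRNA 5 replicate 2 or 3 (0.0506 to 0.0851).

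Sos2, a RAS exchange factor gene, was higher with all 3 (0.47, 0.36 and 0.24, adjusted p = 0.00497, 0.017 and 0.02). Its shRNA 5 call was lost without scrambled replicate 3 or shRNA 5 replicate 2 or 3 (0.061 to 0.0684), and its Sin3A call without scrambled replicate 1 or 3 or Sin3A shRNA replicate 2 or 3 (0.0529 to 0.0807). Araf fell with Sin3A shRNA (-0.34, adjusted p = 0.00197). Eras, a RAS gene expressed in embryonic stem cells, rose with Tet1 shRNA 5 (0.42, adjusted p = 0.0062) and had 0.28 with Tet1 shRNA 4, which passed only without shRNA 4 replicate 2 (adjusted p = 0.0319). Its 0.27 with Sin3A shRNA (adjusted p = 0.019) was lost without scrambled replicate 1 (0.0721) or 3 (0.0503).

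Of the 14 FGF ligands, receptors and binding proteins, 1 rose and 4 fell with both Tet1 hairpins, beside 5.40% and 3.40% of all probe sets. With Sin3A shRNA 3 rose and 3 fell, where 24.8% of all probe sets passed. The list medians were -0.02, 0.02 and 0.04 with Tet1 shRNA 4, Tet1 shRNA 5 and Sin3A shRNA. Fgf10, a ligand of FGFR2b, rose with all 3 hairpins by 1.2, 1.17 and 1.12 (SE 0.10 each, adjusted p = 5.86e-05, 7.41e-05 and 0.000268). Its levels spanned 7.36 to 7.52 with Tet1 shRNA 4 and 7.31 to 7.48 with Tet1 shRNA 5, against 6.08 to 6.44 with scrambled, and 8.21 to 8.55 with Sin3A shRNA, against 7.25 to 7.39 with scrambled, so no groups overlapped. Fgf10 was dim: its scrambled means, 6.24 and 7.32, lay below the median probe set of the Tet1 and Sin3A sets (6.95 and 8.02). Fgfr2, the receptor gene, fell with both Tet1 hairpins (-1.0 ± 0.09 and -0.70 ± 0.09, SE, adjusted p = 0.000141 and 0.00106) and had 0.13 with Sin3A shRNA (adjusted p = 0.117). Fgf4, added here after its values were seen, passed with no hairpin (0.20, 0.18 and -0.09, adjusted p = 0.0713, 0.0954 and 0.437).

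Fgf5, a marker of the epiblast after implantation, fell with both Tet1 hairpins (-0.66 and -0.36, adjusted p = 0.000221 and 0.00609). Fgf17 fell with all 3 hairpins (-0.61, -0.39 and -0.62, adjusted p = 0.000411, 0.00456 and 0.00046). Fgfbp1, whose protein releases FGFs from the matrix, fell with both Tet1 hairpins (-1.12 and -0.91, adjusted p = 0.000874 and 0.00264), and its -0.33 with Sin3A shRNA (adjusted p = 0.0382) was lost without scrambled replicate 1 or 3 or Sin3A shRNA replicate 1 or 2 (0.0803 to 0.113). Its scrambled mean in the Tet1 set, 6.5, lay below the median probe set there (6.95). Fgf15 fell (-0.80, adjusted p = 0.00027) and Fgf13, which acts inside the cell, rose (0.49, adjusted p = 0.000655) with Sin3A shRNA, and neither passed with a Tet1 hairpin (adjusted p 0.316 to 0.935).

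Of the 21 genes listed as other ETS factors or Cic, an ERK-sensitive repressor, 4 rose with both Tet1 hairpins and none fell with both. Over all probe sets those shares were 5.40% and 3.40%. With Sin3A shRNA 5 rose and 7 fell, beside 12.2% and 12.6% of all probe sets. Medians were 0.08 and 0.06 with Tet1 shRNA 4 and 5, and 0 with Sin3A shRNA. The 4 that rose with both Tet1 hairpins included Elf4, at 0.88 and 0.85 with Tet1 shRNA 4 and 5 (SE 0.08 each, adjusted p = 0.00016 and 0.000203) and 0.11 with Sin3A shRNA (adjusted p = 0.398). The ETS repressor genes Etv6 and Erf rose with all 3 hairpins, Etv6 by 0.47, 0.57 and 0.42 (adjusted p = 0.000618, 0.000204 and 0.000799) and Erf, whose protein ERK moves out of the nucleus, by 0.50, 0.53 and 0.31 (adjusted p = 0.00422, 0.00282 and 0.00594). Etv3, a repressor gene related to Erf and added here after its values were seen, had 0.25 and 0.23 with Tet1 shRNA 4 and 5 (adjusted p = 0.0728 and 0.081) and fell with Sin3A shRNA (-0.21, adjusted p = 0.0148). Ets2, an activator phosphorylated by ERK, rose with both Tet1 hairpins (0.46 and 0.41, adjusted p = 0.0018 and 0.00317). Its -0.24 with Sin3A shRNA (adjusted p = 0.0306) was lost without scrambled replicate 1 or 3 or Sin3A shRNA replicate 1 or 2 (0.0773 to 0.11). With Sin3A shRNA Elf3 fell by 0.95 and Elf1 by 0.63, and Elk3, a ternary complex factor gene, rose by 0.59 (adjusted p = 0.000157, 0.000121 and 0.000221).

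The 20 other AP-1 and immediate-early genes gave 2 higher and 2 lower with both Tet1 hairpins, beside 5.40% and 3.40% of all probe sets. With Sin3A shRNA these genes gave 3 higher and 3 lower, a share near the 24.8% of all probe sets called there. Their medians were -0.12, -0.08 and 0.03 with Tet1 shRNA 4, Tet1 shRNA 5 and Sin3A shRNA. Egr1, an immediate-early transcription factor gene, spanned 10.01 to 10.15 with Tet1 shRNA 4 and 9.51 to 9.64 with Tet1 shRNA 5, against 10.24 to 10.50 with scrambled, with no overlap among the 3 groups. It fell by 0.82 with shRNA 5 (adjusted p = 0.000176) and by 0.39 with Sin3A shRNA (adjusted p = 0.0108), and its -0.29 with shRNA 4 (adjusted p = 0.0436) was kept only without scrambled replicate 1 and lost without any other array (0.057 to 0.155). Plaur, the urokinase receptor gene and an AP-1 target, fell with all 3 hairpins (-0.73, -0.50 and -0.31, adjusted p = 0.000311, 0.00262 and 0.0094).

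Myc rose with both Tet1 hairpins (0.36 and 0.60, adjusted p = 0.00448 and 0.000262), as did Emp1, an epithelial membrane protein gene (0.58 and 0.43, adjusted p = 0.00123 and 0.00599). With Sin3A shRNA the AP-1 subunit gene Junb rose by 0.50 (adjusted p = 0.00332) and Srf, the gene of serum response factor, by 0.33 (adjusted p = 0.00564). Fos had 0.57 (adjusted p = 0.0278), a call lost without scrambled replicate 1 or 2 or Sin3A shRNA replicate 2 or 3 (0.0741 to 0.0966). None of those 3 passed with a Tet1 hairpin (adjusted p 0.0669 to 0.806).

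**Figure D4:**
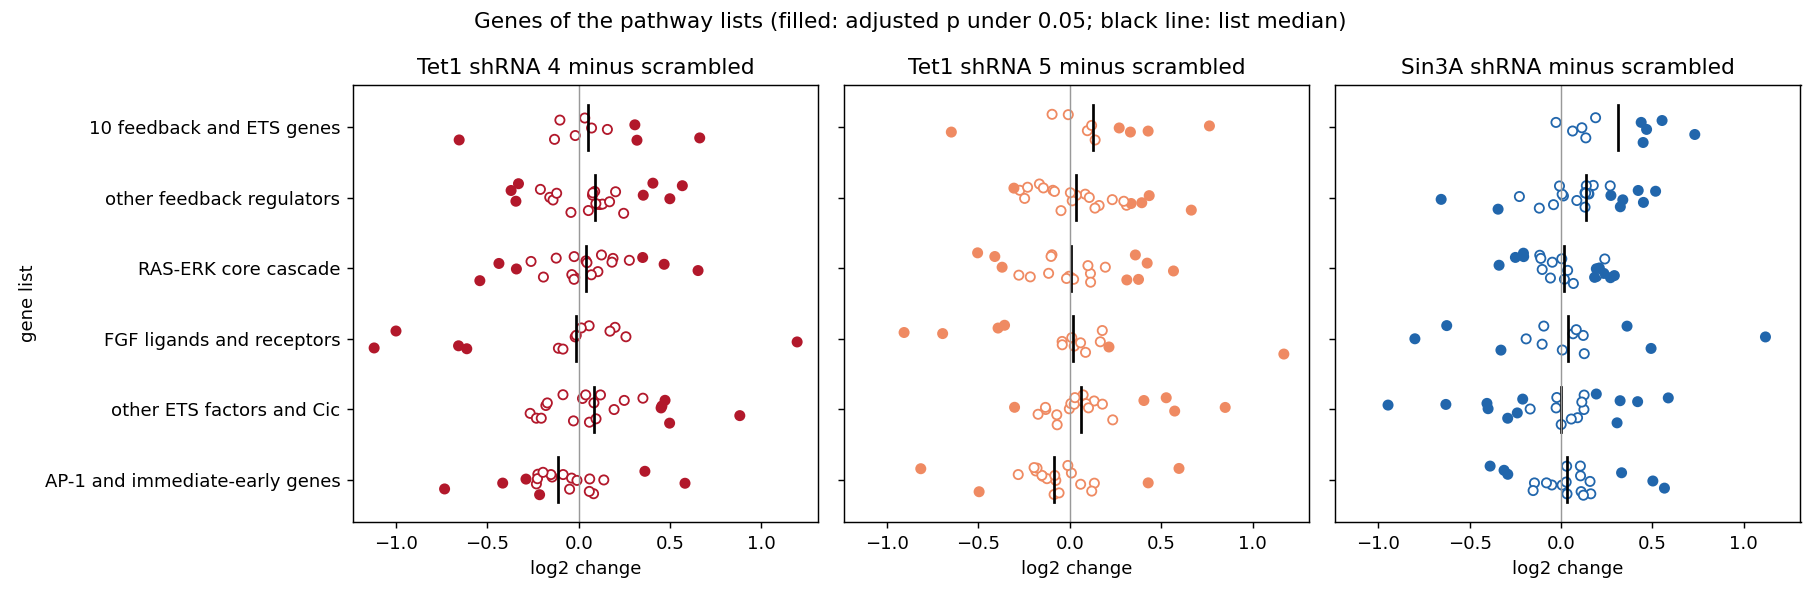
Log2 change of each gene in the 10-gene set and the 5 other pathway lists, for Tet1 shRNA 4, Tet1 shRNA 5 and Sin3A shRNA minus scrambled. Each point is a gene (3 arrays a group), filled where the adjusted p over all probe sets was under 0.05, and black lines mark list medians. The median of the 10 genes is 0.31 with Sin3A shRNA, and those of the other lists lie between 0 and 0.14 in that panel.

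Markers of other cell types differed in the same arrays, and the markers named here were picked after their values were seen. The mean level of the neuroectoderm list (8 genes) was 6.84 to 6.94 with Tet1 shRNA 4 and 6.98 to 7.05 with Tet1 shRNA 5, against 7.26 to 7.27 with scrambled, with 4, 5 and 6 of 8 markers above the median probe set. Its called members were Neurod1 (-1.76 with Tet1 shRNA 4 and -1.23 with Tet1 shRNA 5), Nes and Pax6. These 3 fell with both hairpins, beside 3.40% of all probe sets lower with both. The other 5 did not pass, and the list medians were -0.04 and -0.13. With Sin3A shRNA Neurod1 rose (0.77, adjusted p = 0.000121), and Nes and Pax6 fell (-0.36 and -0.18, adjusted p = 0.0124 and 0.0254). The other 5 did not pass there either, in a comparison that 24.8% of all probe sets passed. The list mean in the Sin3A set was 8.04 to 8.11 with Sin3A shRNA and 8.04 to 8.11 with scrambled.

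In the trophectoderm list (10 genes) 3 rose and 4 fell with Tet1 shRNA 4, 3 rose and 3 fell with Tet1 shRNA 5, and 2 rose and 4 fell with Sin3A shRNA. Of all probe sets 11.6%, 13.8% and 24.8% passed in those comparisons. Eomes, a T-box factor gene, rose with both Tet1 hairpins (1.28 and 1.40, adjusted p = 2.03e-05 and 1.59e-05), as did Gata3 and Tead4. The keratin gene Krt8 fell with both (-1.40 and -1.39, adjusted p = 5.96e-05 and 7.11e-05), as did Krt18 (-1.03 and -0.92) and Tfap2c. These opposite changes left list means of 7.33 to 7.36 with Tet1 shRNA 4 and 7.39 to 7.42 with Tet1 shRNA 5, against 7.37 to 7.54 with scrambled. In the Sin3A set the means were 8.46 to 8.49 with Sin3A shRNA, against 8.68 to 8.74 with scrambled. There Krt8 (-1.01) and Gata3 (-0.42) were among the 4 that fell, and Tead4 (0.48) and Eomes (0.31) were the 2 that rose.

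The mean of the primitive endoderm list (10 genes) was 6.81 to 6.91 with Tet1 shRNA 4 and 6.83 to 6.89 with Tet1 shRNA 5, against 6.57 to 6.78 with scrambled, and 7.84 to 7.86 with Sin3A shRNA, against 7.77 to 7.79 with scrambled. In this list 2 genes rose and 0 fell with Tet1 shRNA 4, 3 rose and 1 fell with Tet1 shRNA 5, and 2 rose and 1 fell with Sin3A shRNA. Of all probe sets 11.6%, 13.8% and 24.8% passed in those comparisons. Sox7 and Lama1 rose with all 3 hairpins, Cubn rose with Tet1 shRNA 5, and Dab2 fell with Tet1 shRNA 5 and Sin3A shRNA. Gata4, Gata6, Sox17, Foxa2, Pdgfra and Afp passed with no hairpin. The list medians were 0.17, 0.18 and 0.07. Of the fibroblast list 2 to 4 of 10 genes, and of the mesoderm and primitive streak list 0 to 2 of 9, lay above the median probe set in any group. In the fibroblast list 1 gene, Thy1, rose with both Tet1 hairpins (0.82 and 0.81), and 2 fell with Sin3A shRNA. In the mesoderm and primitive streak list 0 passed with a Tet1 hairpin, and 1 rose and 1 fell with Sin3A shRNA. The shares of all probe sets are those given for the primitive endoderm list.

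The mean of the stem cell list was 11.93 to 11.97 with Tet1 shRNA 4 and 11.90 to 11.94 with Tet1 shRNA 5, against 11.91 to 11.98 with scrambled, and 12.41 to 12.44 with Sin3A shRNA, against 12.41 to 12.43 with scrambled. Within it Lin28a, an RNA-binding protein gene, fell with both Tet1 hairpins (-0.42 and -0.24, adjusted p = 0.00105 and 0.0192). Tdgf1, a Nodal co-receptor gene, rose with both (0.23 and 0.20, adjusted p = 0.0202 and 0.0387), and Nanog, a pluripotency factor gene, fell with Sin3A shRNA (-0.27, adjusted p = 0.00976). The part of these markers in the changes of the 10 genes was not tested.

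Each gene's pattern over the 15 arrays was set against all other named genes, with every array expressed as its log2 difference from the mean of the scrambled arrays of its set. The values below are Pearson correlations over 15 arrays that fall into 5 groups, so they mainly reflect the group means, and they are descriptions. Dusp4 was most like Ankrd27 (r = 0.991), Cep170b (0.988) and Crkl (0.984), an adaptor gene of receptor tyrosine kinase signalling that had -0.51 and -0.48 with Tet1 shRNA 4 and 5 and 0.02 with Sin3A shRNA. Spred1 was most like Hivep2 (0.986), Smarca2 (0.985), a chromatin remodelling ATPase gene, and Nrbp1 (0.976). Dusp6 was most like Tagln2 (0.981), Mdh1 (0.97) and Syngr2 (0.969), and Etv4 most like B4galt5 (0.981), Fcgr2b (0.98) and Islr2 (0.98).

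For Spry4 the nearest genes were Pxn (0.968), Cluh (0.963) and Ttc9 (0.962). For Etv1 they were Ankmy2 (0.968), Stk38l (0.959) and Zhx1 (0.956), and for Fosl1 Armc7 (0.954), Gpx3 (0.943) and Slc29a4 (0.943). Within the 10 genes, Spred1 and Dusp6 followed each other at r = 0.95 and Spry4 and Etv4 at r = 0.92. Dusp4 ran opposite to Spry4 (r = -0.78) and Etv4 (r = -0.76) over the 15 arrays. With Sin3A shRNA alone Spry4 and Dusp4 had the same sign (0.14 and 0.11), and neither passed.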

How the data were processed

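Total RNA of 15 samples was hybridised to 1-colour Affymetrix arrays, 1 array per sample, in 5 groups of 3 taken from the sample titles. The authors deposited log2 expression values, made with affy, RMA and limma per the submitters' processing notes. Versions, settings and the genome build are not given in the sources used here. From the column means and from ties in the Tet1 set only, the sets appear to have been normalized separately. The table held 21212 probe sets, of which 18786 had 1 symbol in the platform annotation, 6 several and 2420 none. The 10 genes and the 11 other gene lists were chosen with earlier results of these data known.

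Group means were compared by the moderated test of limma 3.58.1 (R 4.3.3, functions lmFit and eBayes, two-sided, Benjamini-Hochberg over 21212 probe sets, threshold 0.05), with 9 arrays for the Tet1 set, 6 for the Sin3A set and 15 for the difference between knockdown effects. All 10 genes are named in every comparison. Of the other pathway lists at most 4 genes a list and knockdown are named, those with the largest mean change among genes past the threshold with both Tet1 hairpins, or with Sin3A shRNA. On simulated data for 21212 probe sets, with 100 changed per size, fewer than the 2459 to 5261 called in the data, a log2 change of 0.3 was recovered for 17%, 22% and 24% (Tet1 shRNA 4, Tet1 shRNA 5 and Sin3A shRNA), and one of 0.7 for 84%, 81% and 86%. Alternatives were median centring, repeated quantile normalization, a filter on dim probe sets, an intensity trend with robust moderation, fits of only 2 groups, a replicate block and leaving out arrays.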

Additional observations from a re-analysis of the deposited data

Results flagged for a closer look

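These differences between knockdown effects or hairpins passed their own test. The mean Tet1 effect minus the Sin3A effect was -0.77 for Dusp4 (adjusted p = 8.19e-06), -0.45 for Etv1 (0.00536), -0.36 for Spred1 (0.00662) and -0.48 for Fosl1 (0.0121). It was -0.29 for Etv5 (adjusted p = 0.0281), -0.23 for Dusp6 (0.0312) and 0.26 for Etv4 (0.0406). Egr1 was lower with Tet1 shRNA 5 than with Tet1 shRNA 4 (difference -0.53, adjusted p = 0.0474), a call kept without scrambled replicate 2 and lost without any other single array (0.0505 to 0.263). Groups of 3 arrays are too small for a test of single outlying arrays.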

How the results depend on the processing

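Median centring left the number of the 10 genes called in each comparison unchanged, and none of their calls given in the report changed sign under any alternative run. Changes of sign were all in values that did not pass: Spred2 was at 0.002 with Tet1 shRNA 4 after repeated quantile normalization and at 0.003 with Tet1 shRNA 5 without both arrays that deviate together (an alternative chosen after seeing the data), and shRNA 5 minus shRNA 4 was -0.026 for Spred2, -0.007 for Spry4 and -0.039 for Etv5 after quantile normalization. On leaving out single arrays, Spred2 with Tet1 shRNA 5 ranged from -0.017 to 0.003, Spry2 with Sin3A shRNA from -0.054 to 0.004, and shRNA 5 minus shRNA 4 from -0.034 to 0.043 for Dusp4, -0.004 to 0.06 for Spry4 and -0.04 to 0.045 for Etv5. Quantile normalization brought the Etv4 difference between Tet1 and Sin3A effects to an adjusted p of 0.0825. A trend with robust moderation gave Spry4 with Sin3A shRNA an adjusted p of 0.0408.

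Of all probe sets, the 30 called between the Tet1 hairpins became 72 with the filter on dim probe sets, 48 with the trend, 0 with the replicate block, 0 in a fit of those 2 groups and 1 without both deviating arrays, and ranged from 0 to 36 on leaving out single arrays. Fosl1 was too dim to be tested in the Tet1 set under the filter. The 5261 probe sets called with Sin3A shRNA ranged from 3359 (without Sin3A shRNA replicate 2) to 4944, and those of the 10 genes called in the difference between effects from 4 (without scrambled replicate 1 of the Sin3A set) to 7 genes. Samples with the same replicate number did not all deviate together (correlations -0.287 to 0.517 in the Tet1 set and -0.274 to 0.021 in the Sin3A set), so the numbers were not taken as pairs. With the replicate number as a block, Dusp6 in the difference had an adjusted p of 0.0689, and no other call among the 10 genes changed. Probe set choice was not varied, since each gene had 1. The number of arrays, 3 a group, limits which changes could pass.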
